A study of Mus musculus with 138 samples.

Results

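Notch signalling passes between touching cells: a ligand of the Jagged or Delta-like family on one cell binds a Notch receptor on its neighbour, the receptor is cut by ADAM proteases and γ-secretase, and its intracellular part enters the nucleus, binds the DNA-binding protein RBPJ and switches on repressor genes of the Hes and Hey families. In bone the pathway is known to hold osteoblast differentiation back, and loss of one copy of JAG1 in people causes Alagille syndrome, in which craniosynostosis has been described. The 10 genes described here were taken by name for their roles in that pathway: the ligands Jag1, Jag2, Dll1 and Dll4, the receptors Notch1, Notch2 and Notch3, and the target genes Hey1, Heyl and Hes1. All 10 were among the 55487 genes counted in the bulk libraries and among the 19768 genes that passed the filter on low counts.

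The study captured the suture mesenchyme (SM), the tissue between 2 calvarial bones, and the osteogenic fronts (OFs) at the bone edges by laser microdissection from frozen heads of wild-type C57BL/6J mouse embryos. It sampled the coronal, frontal, lambdoid and sagittal sutures at E16.5 and E18.5, with 5 embryos per suture and age, and asked which genes separate each front from the mesenchyme. The OFs were those of the frontal (FR) and parietal (PA) bones in the coronal suture, of the interparietal (IP) and parietal bones in the lambdoid suture, of the frontal bones in the frontal suture and of the parietal bones in the sagittal suture, which gives 20 groups, 8 of SM and 12 of OF, and 100 libraries. Strips of wild-type coronal suture were also dissociated for single-cell RNA sequencing, with 2 libraries per age, each pooled from many embryos of both sexes. No group carried a mutation, a transgene or a treatment. The embryos of the 2 ages came from different litters, so that age and litter cannot be told apart. Replicates were separate embryos.

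Total counts per library ran from 7305627 to 34518477, with a median of 26943759 (E16.5) or 22696696 (E18.5) for coronal libraries and medians of 8598662 to 15519560 elsewhere, so that suture and depth moved together. Greater depth did not go with more detected genes. At E16.5 coronal libraries detected 17274 to 22824 genes, against 21967 to 28397 in the other sutures. At E18.5 the ranges were 21273 to 25162 and 20627 to 26651 genes. Whether this bears on the spread within coronal groups was not tested. Marker lists checked the labelled tissue. Of 10 osteoblast markers, 9 were lower in SM than in OF, with a median log2 difference of -4.33 and a summed level of 345 to 2140 counts in 1000000 (CPM) in SM libraries against 2560 to 23100 CPM in OF libraries. Of 9 markers of suture mesenchyme, 7 were higher in SM and 1, Hhip, was lower. The study had already reported Angptl2, Adamts8, Cd34, Erg, Ets2 and Itgb5 as enriched in SM from its bulk data of these sutures. For them the list is no independent check. For Hhip the study reported enrichment in SM in the coronal suture only and in the OFs elsewhere. All 9 proliferation markers were lower in SM.

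RefSeq promoter windows, from 250 bases before to 50 bases after a transcript's start on GRCm38.p6, were present for 7 members, in 8 windows because Dll1 had 2. Hey1, Heyl and Hes1 were not in that table. The windows of Jag1, Notch2 and Notch3, which are the ligand and the receptors called higher in SM most often below, are shown from 5′ to 3′ on the gene's strand, with the GC box GGGCGG or its reverse complement CCGCCC in capitals. They lie at chr2:137116471-137116770 (minus strand), chr3:98013288-98013587 (plus strand) and chr17:32166841-32167140 (minus strand).
Jag1: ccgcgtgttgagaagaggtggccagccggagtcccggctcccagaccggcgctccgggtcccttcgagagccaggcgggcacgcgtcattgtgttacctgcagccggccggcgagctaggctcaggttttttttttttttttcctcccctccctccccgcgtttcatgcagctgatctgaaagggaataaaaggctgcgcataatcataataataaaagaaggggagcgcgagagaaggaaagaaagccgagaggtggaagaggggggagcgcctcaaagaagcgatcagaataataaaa
Notch2: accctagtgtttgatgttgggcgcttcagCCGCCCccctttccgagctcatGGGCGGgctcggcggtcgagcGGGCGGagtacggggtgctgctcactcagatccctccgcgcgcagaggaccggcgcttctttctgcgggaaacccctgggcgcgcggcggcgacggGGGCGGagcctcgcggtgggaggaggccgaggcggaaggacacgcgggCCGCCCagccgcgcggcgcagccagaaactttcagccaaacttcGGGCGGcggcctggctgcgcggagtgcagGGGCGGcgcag
Notch3: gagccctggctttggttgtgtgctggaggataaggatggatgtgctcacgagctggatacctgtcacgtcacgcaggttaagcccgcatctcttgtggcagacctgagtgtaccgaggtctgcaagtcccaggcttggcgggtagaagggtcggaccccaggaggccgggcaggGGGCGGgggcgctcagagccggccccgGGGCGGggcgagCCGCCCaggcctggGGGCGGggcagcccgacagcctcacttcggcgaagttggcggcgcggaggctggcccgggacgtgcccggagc
The Jag1 window held no GC box, the Notch2 window held 7 and the Notch3 window held 4. GC boxes were found in 5 of the 8 windows, against 35.7% of all 32851 windows. The core letters of the RBPJ motif, TGGGAA on either strand, stood in 25.6% of all windows and in 0 of these 8. Matches to short motifs are a description of letters, and a window without them says nothing on binding.

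Levels are given as read pairs per kilobase of exon in 1000000 counted pairs (RPKM), so that genes of different length can be compared. Notch2 was the most abundant member by its median over the 100 libraries, 19.7 RPKM (range 8.15 to 40.0 RPKM), followed by Jag1 with 6.61 RPKM (2.62 to 21.5 RPKM), Hes1 with 3.77 RPKM (1.18 to 13.9 RPKM) and Notch3 with 3.20 RPKM (0.940 to 12 RPKM). Hey1 (2.25 RPKM), Notch1 (1.99 RPKM) and Heyl (1.29 RPKM) were in the middle of the order. The ligands Dll4 (0.645 RPKM), Jag2 (0.425 RPKM) and Dll1 (0.05 RPKM) were the least abundant. Dll1 had a median of 3 counts and was at 0 in 26 libraries, 6 of SM and 20 of OF. When the 20 groups were ordered by their medians for each gene, neighbours overlapped in their libraries in all 19 steps for 8 members and in all but 1 step for Heyl and for Hes1. Coronal SM at E16.5 was the highest group for 5 members, namely Jag1, Notch3, Hey1, Heyl and Hes1. The share of all genes that were highest in that group was not taken. Since suture and depth moved together, this order across sutures is a description only.

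**Figure D1:**
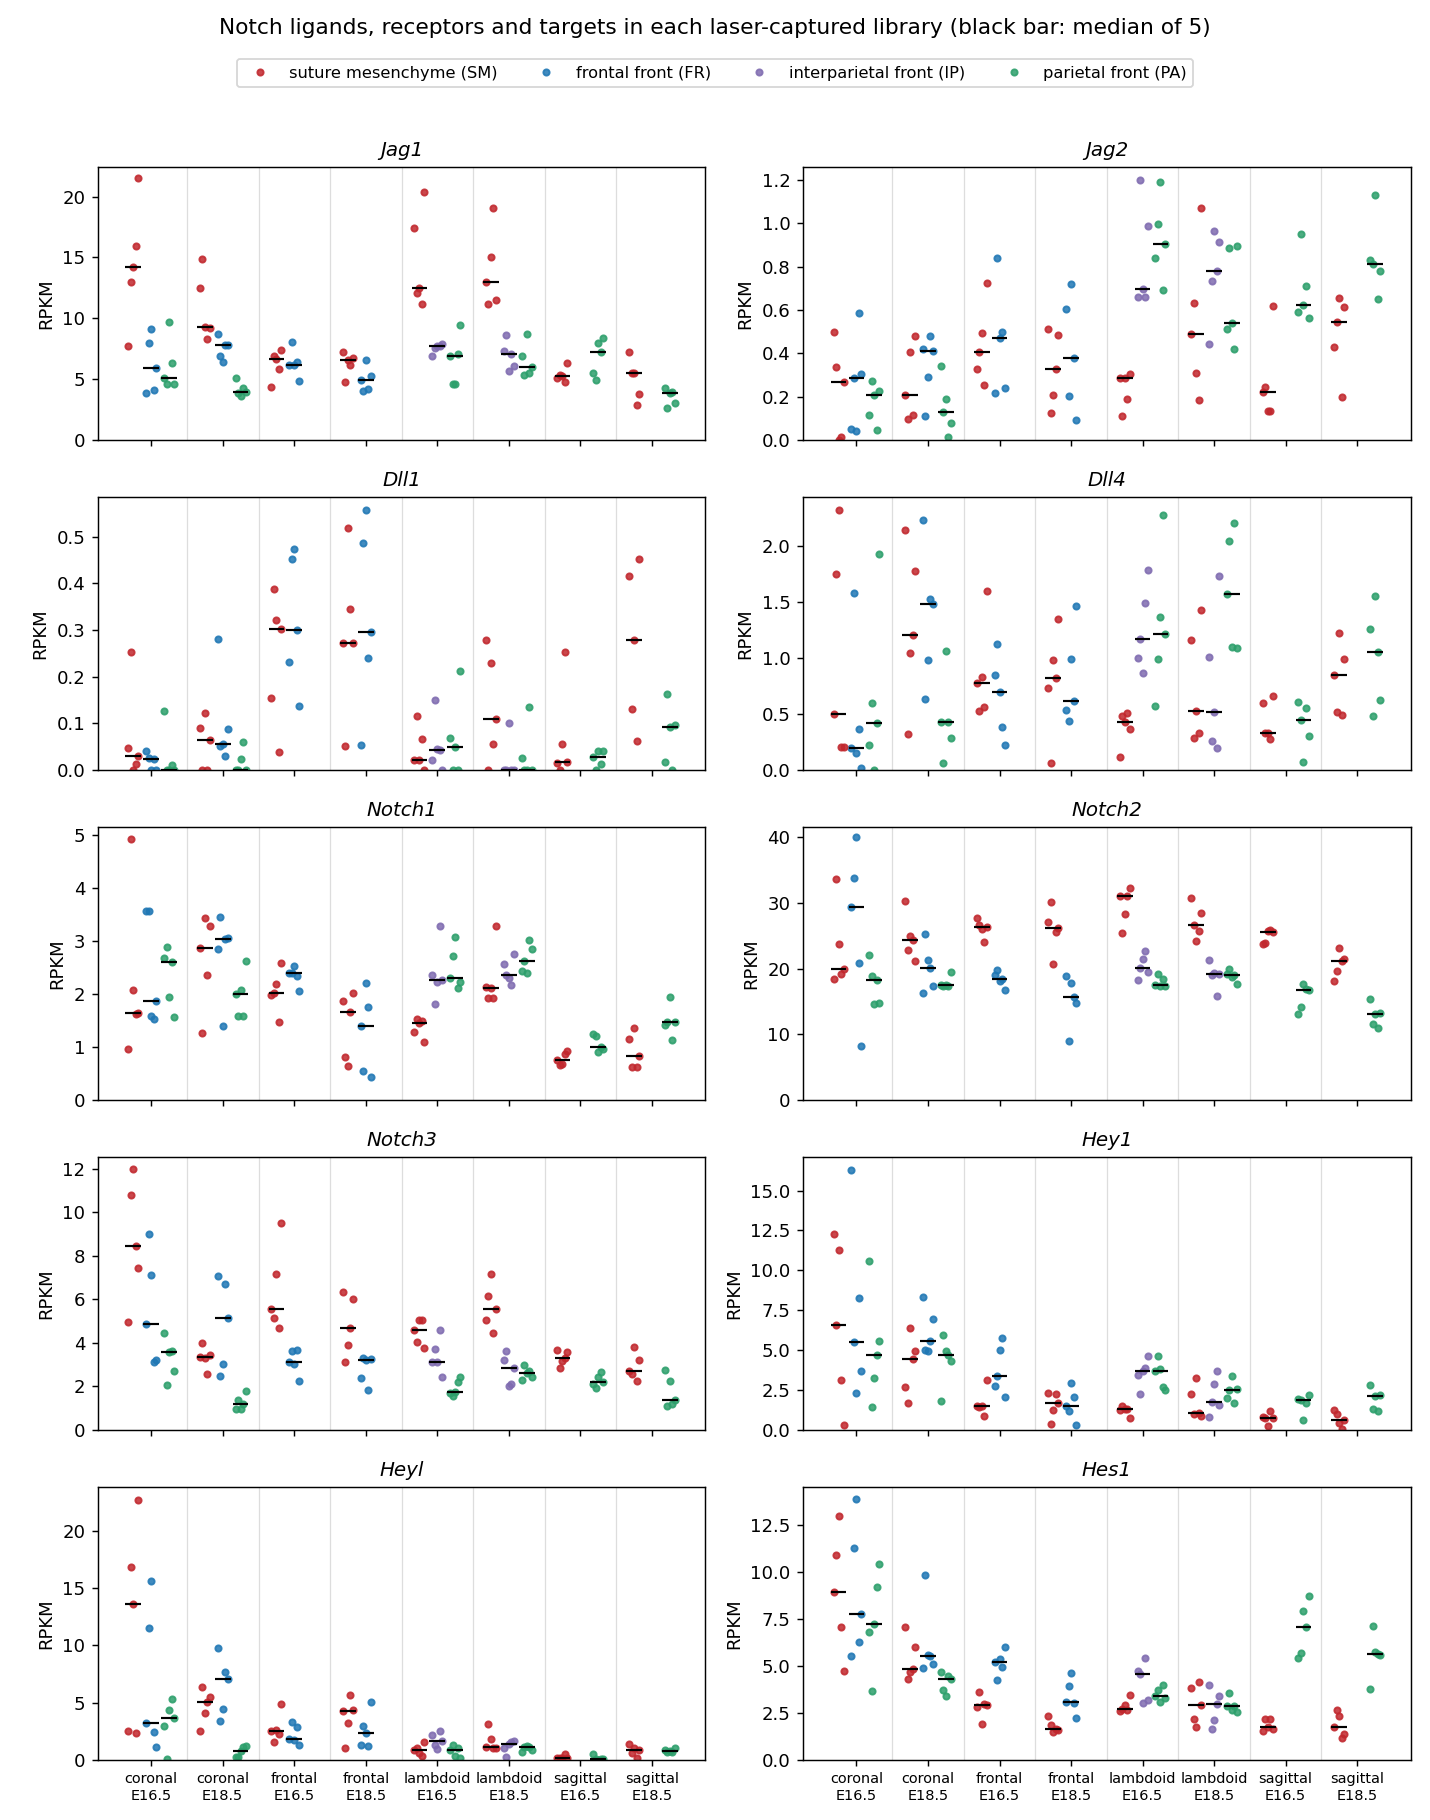
RPKM of each member (1 panel per gene) in every first library of the 20 laser-captured groups along the horizontal axis, with a point per embryo, a bar at the group median, SM in red, FR in blue, IP in purple and PA in green. Jag1, Notch2 and Notch3 stand higher in most SM groups, whereas Hes1 stands lower in frontal and sagittal SM.

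The first comparison was SM against OF, averaged over the 4 sutures and 2 ages. Of the 10 members, 5 were higher in SM (Jag1, Dll1, Notch2, Notch3 and Heyl), 4 were higher in OF (Jag2, Notch1, Hey1 and Hes1) and Dll4 did not pass the test. Differences between SM and OF were common in these data: 55.2% of the 19768 genes passed the same test, 27.5% with SM higher and 27.7% with OF higher. The median log2 difference was 0.22 over the members and 0.04 over all genes tested. Adjusted p-values come from the quasi-likelihood test of edgeR, were adjusted by Benjamini-Hochberg over all genes tested, and were read at a threshold of 0.05. With the embryo as a replicate block in the edgeR model, the calls of Dll1 (adjusted p = 0.0983) and Heyl (adjusted p = 0.0745) were lost, and 3 members stayed higher in SM. In bulk tissue, fewer cells of a type and less RNA per cell cannot be told apart.

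Taken suture by suture and front by front, the 12 comparisons gave 120 member-by-comparison tests. SM was higher in 27 of them (9 for Notch2, 9 for Notch3, 7 for Jag1 and 2 for Heyl), and OF was higher in 11 (4 for Hes1, 3 for Hey1, 2 for Jag2 and 2 for Notch1). Over all genes, 8.22% of such tests passed with SM higher and 10.7% with OF higher. The 2 comparisons of one coronal or lambdoid suture and age share their SM libraries. No member had calls in both directions. Of the calls with SM higher, those of Jag1 held under every alternative setting. Notch2 lost its frontal call at E16.5 under 5 settings and its coronal call at E18.5 under 4. Notch3 lost its call against the coronal FR at E16.5 under 4, and its frontal and sagittal calls at E18.5 under 4 each. The other calls of Notch2 and Notch3 were lost under 0 to 2 settings. Heyl lost its E16.5 call under 4 settings and kept its E18.5 call throughout. The share of all genes called in either direction differed widely between comparisons. At E16.5 it was 30.3% (FR) and 35.5% (PA) for the coronal, 7.95% for the frontal, 11.2% (IP) and 23.0% (PA) for the lambdoid and 17.8% for the sagittal suture. At E18.5 it was 3.46% (FR) and 18% (PA), 11.1%, 19.5% (IP) and 24.5% (PA), and 25.3% in the same order. With the replicate block 2 single comparisons lost a call by edgeR, Jag2 against the lambdoid IP at E16.5 (adjusted p = 0.0583) and Heyl against the coronal PA at E16.5 (adjusted p = 0.153).

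**Figure D2:**
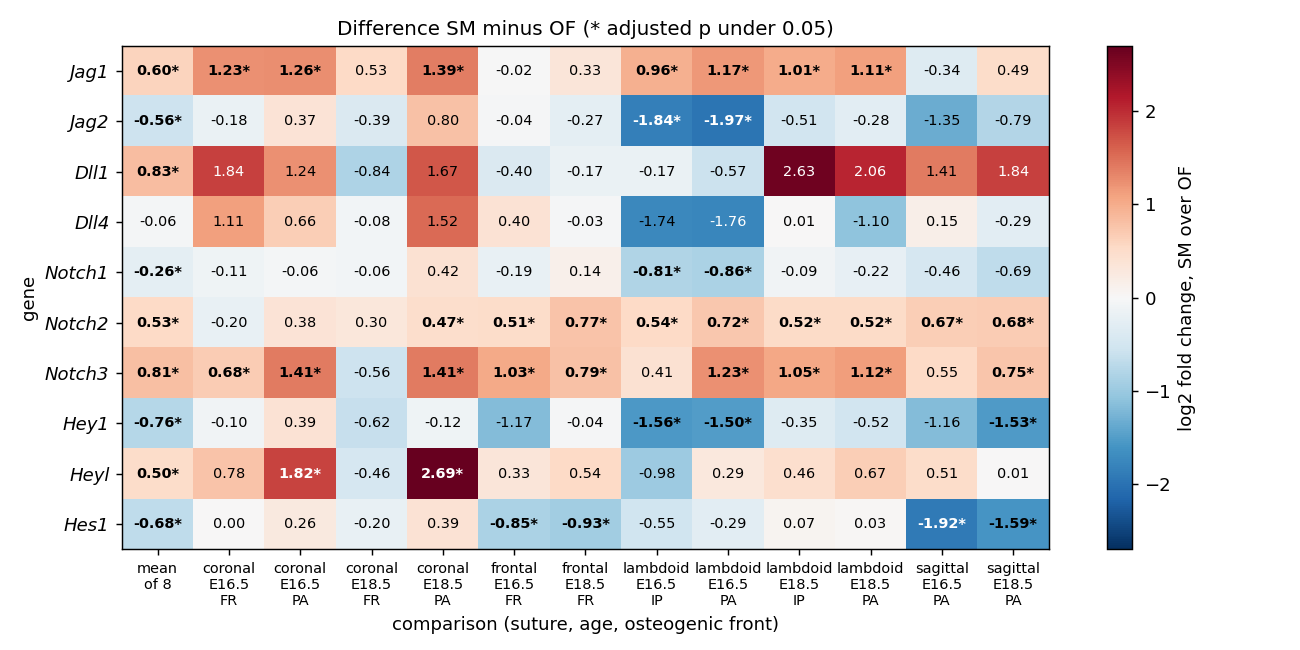
Log2 fold change of SM over OF for each member (rows) in the mean over sutures and ages and in the 12 comparisons (columns), red where SM was higher and blue where OF was higher, with an asterisk at an adjusted p under 0.05. Notch2, Notch3 and Jag1 carry 25 of the 27 calls with SM higher, and the calls with OF higher are those of Hes1, Hey1, Jag2 and Notch1.

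Jag1, the Jagged ligand with the highest level here, was higher in SM by a log2 difference of 0.60 ± 0.07 (SE; 1.51-fold, adjusted p = 2.89e-12 by edgeR), and SM exceeded the mean of its OFs in 32 of 40 embryos. In coronal SM at E16.5 it measured 7.70, 13, 14.2, 15.9 and 21.5 RPKM in the 5 embryos. The frontal OF of the same embryos gave 3.81, 7.99, 9.10, 4.09 and 5.91 RPKM, and the parietal OF gave 5.05, 4.55, 9.70, 6.29 and 4.56 RPKM. SM was therefore above both OFs in each embryo, with group ranges that overlapped because of the first embryo. In lambdoid SM the libraries held 17.4, 12.1, 12.5, 11.2 and 20.4 RPKM at E16.5 and 13, 11.2, 15, 19.1 and 11.5 RPKM at E18.5. None of these overlapped the lambdoid OFs, which ran from 4.61 to 9.47 RPKM at E16.5 and from 5.30 to 8.70 RPKM at E18.5.

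The difference for Jag1 was not the same in the 4 sutures (F test with 3 degrees of freedom in the edgeR model, adjusted p = 1.38e-06). Averaged over both ages, SM was higher by 1.10 ± 0.13 (log2, SE; 2.14-fold) in the coronal and by 1.06 ± 0.13 (2.09-fold) in the lambdoid suture, whereas the differences were 0.16 ± 0.15 in the frontal and 0.07 ± 0.15 in the sagittal suture, which did not pass the test. SM exceeded OF in 10 of 10 coronal and 10 of 10 lambdoid embryos, in 7 of 10 frontal and in 5 of 10 sagittal embryos. At E16.5, sagittal SM held 5.10, 5.30, 5.26, 4.78 and 6.35 RPKM and the sagittal OF held 5.47, 4.96, 8, 7.22 and 8.34 RPKM. With both ages averaged, 37.1% (coronal), 17.8% (frontal), 39.6% (lambdoid) and 34.5% (sagittal) of all genes tested were called. Of all genes tested, 19.9% had a difference that varied between the sutures, and of the members Jag1 and Hes1 did. The sutures differed in depth, and the part of this in the differences between sutures was not tested. Normalization controls are titled in sets C, IF, L and S, each holding every suture, and the labels do not tie a set to the captured libraries of a suture.

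The other ligands were scarce. Jag2, the second Jagged ligand, was higher in OF by 1.47-fold (log2 difference -0.56 ± 0.20, SE, adjusted p = 0.0129 by edgeR), with OF above SM in 28 of 40 embryos. The calls came from the lambdoid suture at E16.5, where SM held 0.284, 0.111, 0.286, 0.187 and 0.302 RPKM and the parietal OF 0.837, 0.995, 1.19, 0.692 and 0.904 RPKM, with no overlap. The interparietal OF there held 0.657 to 1.2 RPKM, and the call against it was lost under 9 of 15 alternative settings, among them without any 1 of the 5 replicates. The coronal first libraries of E16.5 held 0 to 0.584 RPKM of Jag2 and the second libraries of those regions, present for 3 replicates, 0.553 to 2.22 RPKM, so that its coronal level depended on the library. Leaving out replicate 2, 3 or 4 from all groups ended its call in the mean of sutures and ages (adjusted p = 0.0897, 0.0639 and 0.120 by edgeR), as did second coronal libraries in place of the first (0.0590).

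Dll1, a Delta-like ligand of mesodermal and neural tissue, differed by 0.83 ± 0.36 (log2, SE; adjusted p = 0.0429 by edgeR) with SM higher, but by embryo SM was above OF in 18 and below it in 19 of 40, and the call did not pass under 9 of 14 alternative settings, among them without replicate 2, 4 or 5 (adjusted p = 0.110, 0.0611 and 0.0697 by edgeR). Its highest group median was 0.302 RPKM in frontal SM at E16.5 (0.154, 0.389, 0.321, 0.0380 and 0.302 RPKM). Dll4, the Delta-like ligand of growing vessels, showed a difference of -0.06 ± 0.22 (log2, SE; adjusted p = 0.854 by edgeR). Its highest group median was 1.57 RPKM in the lambdoid parietal OF at E18.5, and in lambdoid SM at E16.5 it was at 0.112, 0.477, 0.424, 0.507 and 0.364 RPKM, below every OF library of that suture and age (0.570 to 2.27 RPKM). That separation did not pass the test across all genes against either OF (adjusted p = 0.102 for IP and 0.0569 for PA by edgeR), though with both ages averaged lambdoid OF was higher by 2.21-fold (adjusted p = 0.0294 by edgeR).

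Among the receptors, Notch2 and Notch3 were higher in SM and Notch1 was not. Notch2 differed by 0.53 ± 0.05 (log2, SE; 1.45-fold, adjusted p = 3.07e-15 by edgeR), and SM exceeded OF in 37 of 40 embryos. In frontal SM at E16.5 it held 27.7, 26.7, 26, 24 and 26.4 RPKM against 19, 19.8, 18.1, 18.4 and 16.7 RPKM in the OF. Sagittal SM at E16.5 gave 23.8, 23.9, 25.7, 25.8 and 25.5 RPKM against 13.1, 14.2, 17.7, 16.9 and 16.8 RPKM in the OF. The groups overlapped in neither suture. The coronal suture at E16.5 was the exception in spread: its frontal OF ran from 8.15 to 40.0 RPKM and its SM from 18.4 to 33.7 RPKM, and neither coronal comparison at that age passed the test for Notch2. At E18.5 the coronal comparison passed against the parietal OF but not against the frontal OF. Over both ages SM exceeded OF in 7 of 10 coronal embryos and in 10 of 10 of each other suture.

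Notch3, a receptor known from pericytes and vascular smooth muscle, differed by 0.81 ± 0.08 (log2, SE; 1.75-fold, adjusted p = 1.09e-15 by edgeR), with SM higher in 35 of 40 embryos. In coronal SM at E16.5 it held 4.96, 10.8, 12, 8.45 and 7.43 RPKM against 4.44, 2.06, 3.59, 3.63 and 2.7 RPKM in the parietal OF, with no overlap (2.66-fold). The lambdoid suture at E18.5 showed the same order, with 5.05, 6.14, 7.18, 4.47 and 5.54 RPKM in SM against 2.31, 2.99, 2.60, 2.7 and 2.42 RPKM in the parietal OF. Only in the coronal suture at E18.5, against the frontal OF, did the fitted difference lie on the other side (-0.56, not called): SM held 3.34, 4.00, 3.28, 2.57 and 3.43 RPKM and the frontal OF 7.08, 2.49, 3.04, 6.71 and 5.15 RPKM. For the 12 comparisons, SM and OF libraries did not overlap in 9 for Notch2, 7 for Notch3 and 5 for Jag1, all with SM higher, and over all genes 17.6% of such pairs of groups were separated in either direction.

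Notch1 was higher in OF by 1.2-fold (log2 difference -0.26 ± 0.09, SE, adjusted p = 0.0130 by edgeR), with OF above SM in 29 of 40 embryos. The 2 calls came from the lambdoid suture at E16.5, where SM held 1.28, 1.52, 1.45, 1.48 and 1.09 RPKM and the parietal OF 2.30, 2.71, 3.07, 2.12 and 2.22 RPKM, with no overlap. In the coronal suture the difference over both ages was 0.05 ± 0.17 (log2, SE). The call in the mean of sutures and ages was lost with DESeq2 (adjusted p = 0.0648) and without replicate 1 (adjusted p = 0.115) or replicate 4 (adjusted p = 0.122) by edgeR. It was also lost by edgeR with other scalings, namely median-ratio size factors (adjusted p = 0.0708) and total counts (log2 difference -0.15, adjusted p = 0.228). The single calls were lost under 8 (parietal OF) and 11 (interparietal OF) of 15 alternative settings, in both cases among them without replicate 1, 3, 4 or 5.

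The target genes did not move together. Hes1, a repressor that many cell types use downstream of Notch and of other signals, was higher in OF by 1.6-fold (log2 difference -0.68 ± 0.09, SE, adjusted p = 7.17e-11 by edgeR), and its difference varied between sutures (F test, adjusted p = 3.78e-09). In the sagittal suture SM held 1.54, 2.15, 1.72, 2.16 and 1.63 RPKM at E16.5 against 5.42, 5.69, 7.91, 7.08 and 8.71 RPKM in the OF, and 1.72, 2.63, 2.34, 1.18 and 1.37 RPKM at E18.5 against 3.75, 7.13, 5.72, 5.63 and 5.57 RPKM. The groups did not overlap at either age, and OF was higher in all 10 embryos (3.37-fold over both ages). The frontal calls were lost under 7 (E16.5, among them without replicate 1, 3, 4 or 5) and 4 (E18.5, among them without replicate 3) of 15 alternative settings. Over both ages frontal OF was higher by 1.85-fold, also in all 10 embryos, while the differences were -0.18 ± 0.16 in the lambdoid and 0.11 ± 0.16 in the coronal suture (log2, SE), where SM was higher in 3 and 6 of 10 embryos. In the coronal suture SM at E18.5 held 7.09, 4.29, 4.70, 4.83 and 6.03 RPKM, overlapping the range of its frontal OF (4.87 to 9.82 RPKM).

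Hey1, a hairy-related repressor of the Hey family, was higher in OF by 1.70-fold (log2 difference -0.76 ± 0.17, SE, adjusted p = 8.35e-05 by edgeR), with OF above SM in 31 of 40 embryos. Lambdoid SM at E16.5 held 1.21, 1.51, 1.31, 1.28 and 0.766 RPKM against 3.46, 2.22, 3.69, 3.88 and 4.63 RPKM in the interparietal OF, with no overlap. That call and the one against the parietal OF were each lost under 8 of 15 alternative settings, among them without replicate 1, 3, 4 or 5. Heyl, another member of that family, was higher in SM by 1.42-fold (log2 difference 0.50 ± 0.20, SE, adjusted p = 0.0290 by edgeR) and in 23 of 40 embryos, a call lost without replicate 2, 3 or 5 (adjusted p = 0.0543, 0.0789 and 0.112 by edgeR). Both of its calls were against the coronal parietal OF: at E18.5, SM held 2.5, 6.35, 4.06, 5.06 and 5.51 RPKM and the parietal OF 0.222, 0.284, 0.798, 1.14 and 1.19 RPKM (6.44-fold). The frontal OF of those embryos was not low, with 9.80, 3.37, 4.43, 7.62 and 7.02 RPKM. The summed endothelial markers stood in the same order by their means, with 99.2 to 140 CPM in that parietal OF, 323 to 434 CPM in SM and 249 to 536 CPM in the frontal OF, and their part in the result was not tested. The spread of Heyl within coronal groups was wide at E16.5, with 2.47, 16.8, 13.6, 2.34 and 22.7 RPKM in SM.

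For no member did the SM-OF difference pass the test for a change between the ages by edgeR (0 of 10 called, against 0.713% of all genes), by DESeq2 or by limma-voom. At an unadjusted p under 0.05 the count was also 0 by edgeR. The fitted change was towards SM at E18.5 for 90.0% of the members (median log2 change 0.20) and for 48.8% of all genes tested (median -0.01). That share was not tested. The difference of Jag1, for example, was 0.49 ± 0.10 at E16.5 and 0.71 ± 0.10 at E18.5 (log2, SE), and the fitted change between them was 0.22 ± 0.14 (adjusted p = 0.664 by edgeR).

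Between the ages, averaged over the 10 regions, 3 members were higher at E16.5 and 0 at E18.5, where 12.5% and 12.2% of all genes tested were called in those directions. At an unadjusted p under 0.05, 5 members were higher at E16.5 and 1, Dll4, at E18.5; DESeq2 called 0 and limma-voom called 0 at E18.5. Without replicate 2, Dll4 was called higher at E18.5 (log2 difference 0.79, adjusted p = 0.00461 by edgeR). Notch2 was called higher at E16.5 without replicate 5 (log2 difference -0.16, adjusted p = 0.0109 by edgeR). The same held with another low-count filter, filterByExpr (log2 difference -0.13, adjusted p = 0.047 by edgeR). Hes1 differed by -0.45 ± 0.08 (log2 of E18.5 over E16.5, SE; adjusted p = 7.71e-06), Notch3 by -0.36 ± 0.08 (adjusted p = 0.000115) and Jag1 by -0.23 ± 0.07 (adjusted p = 0.00732), all by edgeR. Without replicate 5 in all groups the call of Jag1 was lost (log2 difference -0.15, adjusted p = 0.168 by edgeR). Region by region, 6 of 100 tests passed with E16.5 higher and 1 with E18.5 higher, against 4.13% and 4.42% of such tests over all genes. The coronal calls of Hes1 were lost under 7 (SM, among them without replicate 2, 3 or 4) and 4 (PA, among them without replicate 5) of 15 alternative settings. Genes called in either direction were 24.4%, 20.4% and 27.1% of all in coronal FR, PA and SM, 4.32% and 2.33% in frontal FR and SM, 0.293%, 1.01% and 3.01% in lambdoid IP, PA and SM, and 1.59% and 1.10% in sagittal PA and SM. By suture, with regions averaged, they were 42.1% (coronal), 10.3% (frontal), 8.77% (lambdoid) and 3.63% (sagittal). In either direction, 24.6% of all genes were called in the mean over regions. Across the ages all 9 proliferation markers were lower at E18.5 and 8 of 9 pericyte markers were higher (summed level 149 to 763 CPM at E16.5 and 227 to 1290 CPM at E18.5). Of 10 macrophage markers 9 were higher at E18.5 and none lower (43.4 to 406 CPM and 89.5 to 455 CPM), and of 12 endothelial markers 5 were higher and none lower (75.6 to 812 CPM and 99.2 to 536 CPM). Of 6 erythroid markers 4 were lower at E18.5 (68.3 to 18700 CPM and 42.4 to 6840 CPM). The part of these markers in the age differences was not tested.

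The age differences of Notch3, Heyl and Notch1 were not the same in the 4 sutures, by an F test with 3 degrees of freedom in the same edgeR model that was chosen after the data had been seen (adjusted p = 3.18e-05, 3.49e-05 and 0.00346), and 33.4% of all genes passed it. Notch3 was 1.97-fold higher at E16.5 in the coronal suture, and its differences in the frontal, lambdoid and sagittal sutures did not pass. Coronal SM held 4.96, 10.8, 12, 8.45 and 7.43 RPKM at E16.5 and 3.34, 4.00, 3.28, 2.57 and 3.43 RPKM at E18.5, and the coronal parietal OF 2.06 to 4.44 RPKM and 0.940 to 1.79 RPKM, without overlap in either region. Notch1 in lambdoid SM, Jag1 and Heyl in the sagittal PA and Notch2 in sagittal SM also had separated age groups. All other age comparisons of the members overlapped. Over all genes, 7.16% of pairs of age groups did not overlap, so that the members were not separated more often. Where second coronal libraries took the place of the first, the edgeR test lost the difference between sutures for Notch3 (adjusted p = 0.170), and also its mean age difference over regions (adjusted p = 0.0880).

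Heyl moved in opposite directions in 2 sutures. It was 2.27-fold higher at E16.5 in the coronal suture and 4.47-fold higher at E18.5 in the sagittal suture, where the OF held 0.467, 0.104, 0.0223, 0.103 and 0.0565 RPKM at E16.5 and 0.851, 0.667, 0.730, 0.719 and 1.04 RPKM at E18.5, with no overlap. The summed endothelial markers of that sagittal OF ran from 75.6 to 143 CPM at E16.5 and from 241 to 392 CPM at E18.5. In the coronal parietal OF, where Heyl had a mean of 3.28 RPKM at E16.5 and 0.727 RPKM at E18.5, those sums ran from 135 to 502 CPM at E16.5 and from 99.2 to 140 CPM at E18.5, so that in both fronts they lay in the order of Heyl. Their part in the result was not tested. The sagittal call of Heyl was lost under 8 of 15 alternative settings, among them without replicate 2, 3, 4 or 5. By limma-voom the difference between sutures did not pass for Heyl (adjusted p = 0.151), nor did its age differences in the coronal and sagittal PA, with the embryo as a random effect (adjusted p = 0.225 and 0.562) or without it (adjusted p = 0.215 and 0.547). Notch1 was 1.64-fold higher at E16.5 in the frontal suture (log2 difference -0.71 ± 0.20, SE) and did not pass in the others (0.06 to 0.36).

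**Figure D3:**
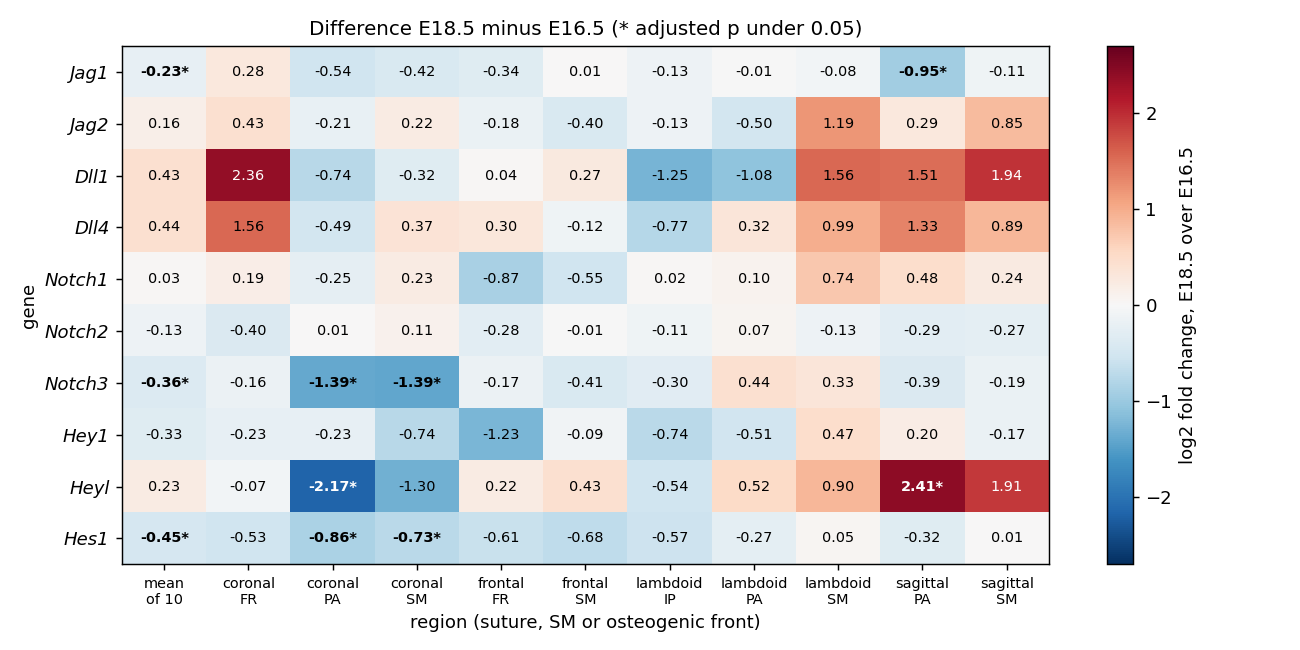
Log2 fold change of E18.5 over E16.5 for each member (rows) in the mean over regions and in the 10 regions (columns), red where E18.5 was higher and blue where E16.5 was higher, with an asterisk at an adjusted p under 0.05. The blue cells of Notch3 and Hes1 in the coronal PA and SM and the opposite cells of Heyl in the coronal and sagittal PA hold 6 of the 7 calls.

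The other genes of the pathway were taken from a list of 44, of which 38 were tested. Between SM and OF, 12 were higher in SM and 13 in OF, with a median log2 difference of 0.02, at the background of 27.5% and 27.7% given above. Of the 9 genes of receptor cleavage, 5 were higher in OF, among them the proteases Adam10 and Adam17, and 2 in SM (the alternative subunits Aph1b and Aph1c). Of the 7 genes of the nuclear complex, 3 were higher in SM, among them Rbpj and Maml2, and 3 in OF (Maml3, Snw1 and Spen). The genes named from these small groups were chosen after their values were seen. Among the 6 largest changes, Dlk2 (log2 difference -1.93 ± 0.28) and the Fringe glycosyltransferase Lfng (-1.28 ± 0.14), which adjusts how receptors respond to ligands, were higher in OF. Hes7 (1.54 ± 0.34), Aph1c (1.51 ± 0.26), the non-canonical ligand Dlk1 (1.30 ± 0.13) and Dtx3 (0.90 ± 0.10) were higher in SM (log2, SE). Lfng held a median of 0.927 RPKM over 40 SM libraries (0.116 to 4.67 RPKM) and 2.93 RPKM over 60 OF libraries (0.187 to 8.44 RPKM), and Dlk1 held 10.4 RPKM (0.226 to 54.0 RPKM) and 3.05 RPKM (0.0362 to 12.7 RPKM).

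Between the ages, 5 of the 38 were higher at E18.5 and 5 at E16.5, against the 12.2% and 12.5% of all genes tested. Rbpj, the DNA-binding partner of the receptors, was higher at E18.5 by 0.44 ± 0.04 (log2, SE; adjusted p = 1.07e-15 by edgeR), with medians of 6.75 and 10.5 RPKM in SM and of 6.02 and 7.85 RPKM in OF at E16.5 and E18.5. Psen2 (0.54 ± 0.18), Dtx4 (0.39 ± 0.11) and Mib2 (0.35 ± 0.11) were also higher at E18.5. Hey2, a further Hey gene, was lower at E18.5 (-0.75 ± 0.22), as by the fit was Dner (-1.14 ± 0.42), which rests on few libraries: its medians were 0 RPKM in SM and OF at E16.5 and 0.00931 and 0 RPKM at E18.5, with highest SM libraries of 2.44 and 0.262 RPKM. The SM-OF difference varied between sutures for 10 of the 38, Dlk1 and Rbpj among them, against 19.9% of all genes tested.

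Across the 20 group means of log2 CPM, centred within each suture and age so that they show differences between the regions of a suture, those between the 2 fronts of the coronal and lambdoid sutures included, members fell into patterns that are given as descriptions. The points share libraries and therefore depth, and no test was made. Notch1 followed Jag2 (r = 0.899) and Hey1 (r = 0.890), and Notch3 followed Heyl (r = 0.804), Jag1 (r = 0.793) and Notch2 (r = 0.774). Of all genes tested, those most like Notch2 were Adamts7 (r = 0.988), Pam (r = 0.979) and Htra1 (r = 0.978), and those most like Notch3 included B4galt4 (r = 0.959) and Ccdc85a (r = 0.954). Jag1 was closest to Ctsc (r = 0.938), Jag2 to Notch1, Dll1 to Gdpd1 (r = 0.894), Notch1 to Plxnd1 (r = 0.913), Hey1 to Map7 (r = 0.932) and Hes1 to Pygl (r = 0.940). Dll4 was closest to Tmem255a (r = 0.954), Mcam (r = 0.926) and Cd93 (r = 0.922), the last 2 known from vessel walls, and Heyl to Prex2 (r = 0.940), Shank3 (r = 0.934) and Moxd1 (r = 0.934).

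Levels of cell type markers are given beside these differences, and their part in them was not tested. The summed endothelial markers followed Dll4 (r = 0.861) and Heyl (r = 0.840) over the same 20 means, and the summed osteoblast markers ran against Notch2 (r = -0.927) and with Hey1 (r = 0.802). The summed dura mater markers followed Notch3 (r = 0.910) and Notch2 (r = 0.839), the summed proliferation markers ran against Notch2 (r = -0.891), and the summed markers of suture mesenchyme followed Notch3 (r = 0.851) and Jag1 (r = 0.830). Most genes of the mesenchyme list had been reported as enriched in SM from these bulk data, so its correlations are no independent check. For the pericyte markers and Notch3 the correlation was 0.326. That sum leans on its most abundant genes. In OF the most abundant was Cspg4, with a mean log2 CPM of 7.38 against 6.22 in SM. A correlation without Cspg4 was not taken. Of 12 endothelial markers 2, Pecam1 and Eng, were higher in SM and none lower, with sums of 118 to 812 CPM in SM and 75.6 to 536 CPM in OF. Of 9 pericyte markers 6 were higher in SM (Rgs5, Kcnj8, Abcc9, Myh11, Des and Acta2) and 1, Cspg4, was lower, with sums of 264 to 793 CPM and 149 to 1290 CPM. Macrophage markers were higher in SM in 9 of 10 cases and lower in none (43.4 to 455 CPM in SM and 76.7 to 262 CPM in OF), as were all 5 markers of ectocranial mesenchyme (255 to 3100 CPM and 103 to 3330 CPM). Of 8 chondrocyte markers tested, 5 were higher in SM and 1 was lower (84 to 534 CPM and 55.5 to 262 CPM), and of 8 dura mater markers 3 were higher and none lower (31.7 to 433 CPM and 17.7 to 205 CPM). No erythroid marker of 6 was called. In lambdoid SM at E16.5, where Dll4 was low, the endothelial sum was 118 to 187 CPM against 208 to 413 CPM in the OFs. Exons of Dll1, Dll4, Notch1 and Notch3 overlap a gene on the opposite strand, and those of Notch2 a gene on the same strand; since pairs were counted without strand, reads of overlapping genes cannot be told apart there.

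**Figure D4:**
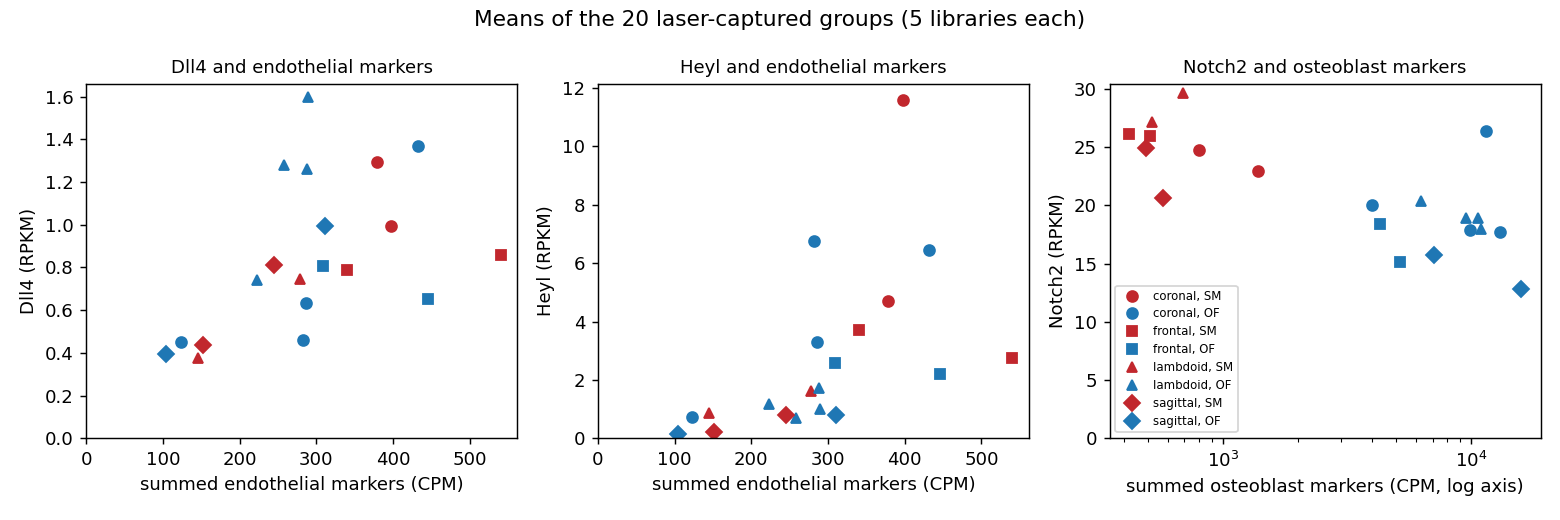
Group means of Dll4 and Heyl (RPKM) against the summed endothelial markers (CPM), and of Notch2 (RPKM) against the summed osteoblast markers (CPM, log axis), for the 20 laser-captured groups, with colour for SM or OF and shape for the suture. The groups with the fewest endothelial markers have low Dll4 and Heyl, and the SM groups, all below 2140 CPM of osteoblast markers, lie above every OF group for Notch2 except the coronal FR group of E16.5.

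Complete sutures at E18.5, deposited as normalization controls with 4 libraries per suture, are given as values only. The 4 libraries of a suture carry the same replicate number in the labels and may be repeat preparations of 1 sample, so that their spread may be technical only. Notch2 ran from 16.2 to 21.3 RPKM in these 16 libraries, Notch3 from 3.71 to 5.31 RPKM and Jag1 from 5.00 to 8.84 RPKM. Hey1 was lowest in the sagittal (1.82 to 3.80 RPKM) and highest in the coronal suture (6.57 to 9.05 RPKM). Heyl was at 1.53 to 1.74 RPKM in the sagittal and 2.77 to 4.03 RPKM in the coronal suture. The titles place these libraries in 4 control sets, and in each suture Hes1 was higher in the sets titled C and S. It ran from 6.2 to 11.4 RPKM in those and from 4.08 to 6.66 RPKM in the sets titled IF and L. Within the coronal suture alone it ran from 4.08 to 11.4 RPKM. Whether such sets bear on the captured libraries was not tested.

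For E16.5, libraries 1 and 2 of the single-cell assay listed 1530 and 1482 barcodes, of which 497 and 359 had over 800 detected genes and 466 and 337 were kept. For E18.5 they listed 2628 and 1999 barcodes, with 2625 and 1624 over that minimum and 2412 and 1577 kept. The younger libraries held fewer barcodes over that minimum than the study gives as their final cells, and all levels of that age rest on the cells kept here. The names of the deposited matrices of the older age carry a code for the younger one, and the labels were followed. The numbers of barcodes over the minimum in the matrices labelled with the older age equal the final cells that the study gives for that age. Kept cells had medians of 2501 and 2121 unique molecular identifiers (UMIs), which count single transcripts, at E16.5, and of 18476 and 7131 at E18.5. The libraries of one age shared 1 and 5 barcodes, and no barcode was shared between ages. The version of the library kit differed between the ages and cannot be told apart from age, so that single-cell levels were not compared between ages. Cells were clustered without the Notch genes, and clusters were named from marker lists. The levels below are UMIs in 1000000 UMIs of a class (CPM) in libraries 1 and 2, they rest on the cells that made the clusters, and no test was made.

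At E18.5 pericyte-like cells (29 and 26 cells; led by Rgs5) held the highest Notch3, with 382 and 427 CPM, against 10.8 and 14.4 CPM over all cells. They made up 1.38% of the cells and 34.1% of the Notch3 UMIs. The same cells were highest for Heyl, with 139 and 169 CPM against 2.7 and 4.66 CPM over all cells, and for Jag1, with 60 and 72.5 CPM against 15.8 and 20.4 CPM. Counting error was wide here: the exact 95% Poisson interval of Notch3 in library 1 was 325 to 446 CPM from 159 UMIs. Endothelial-like cells held 76.0 CPM of Notch3 in library 1 and 2.85 CPM in library 2. At E16.5 no cluster was named pericyte-like.

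Endothelial-like cells held nearly all Dll4. At E18.5 (42 and 27 cells) the level was 105 and 114 CPM, with 83.6% of all Dll4 UMIs in 1.73% of the cells, and at E16.5 (34 and 39 cells) it was 70.9 and 64.7 CPM, with 15 of 16 UMIs. Pooled over libraries, Notch1 was highest in the same cells at both ages, at 120 and 237 CPM (E18.5) and 134 and 97.0 CPM (E16.5), as was Hey1 at E18.5 with 45.9 and 45.6 CPM. Of the few Jag2 UMIs, 26 of 42 at E18.5 and 8 of 11 at E16.5 lay in endothelial-like cells, and so did 12 of 23 and 4 of 5 of the Dll1 UMIs. In macrophage-like cells, taken as the background, the level of Dll4 at E18.5 was 0.549 CPM in library 1 (2 UMIs) and 0 UMIs of 393677 in library 2, which at a limit of 3 counts for a count of 0 allows up to 7.62 CPM.

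Notch2, Jag1 and Hes1 were found in many classes, those of mesenchyme among them. No cluster at E18.5 was named suture mesenchyme-like. The largest cluster of that age, of 764 cells and without a name, held 30.9 CPM of Notch2, 13.7 CPM of Jag1 and 80.5 CPM of Hes1, pooled over libraries. At E18.5 Notch2 was at 46.7 and 92.9 CPM in ectocranial mesenchyme-like cells and at 57.3 and 90.1 CPM in dura mater-like cells, against 16.8 and 35.6 CPM in osteoblast-like and 23.3 and 35.6 CPM in macrophage-like cells. The level was higher in library 2 in each of these classes, as it was over all cells (35.4 and 44.4 CPM). Jag1 was at 3.64 and 5.13 CPM in osteoblast-like cells and at 23.0 and 40.4 CPM in ectocranial mesenchyme-like cells. A cluster of 476 cells led by Tppp3, Dpt and Ptx4, which rested on too few markers for a name, held 17.7 and 32.3 CPM of Jag1. Hes1 was at 203 and 354 CPM in dura mater-like cells, 194 and 173 CPM in pericyte-like cells and 109 and 174 CPM in osteoblast-like cells, against 16.7 and 33.0 CPM in macrophage-like cells. The dura mater-like name rests on list markers, none of which was among the top 10 genes of its clusters.

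At E16.5 counts were small. Notch3 lay mostly in osteoblast-like cells, at 68.4 and 52.6 CPM (34 of 51 UMIs), as did Heyl, at 30.4 and 32.9 CPM (18 of 23 UMIs). With a minimum of 500 in place of 800 detected genes that cluster divided, and its Notch3 UMIs went to a suture mesenchyme-like cluster (78.0 and 83.8 CPM), leaving 0 in the 64 osteoblast-like cells, so that the class of these UMIs depends on the clustering. Jag1 was at 78.9 and 113 CPM in dura mater-like cells and at 158 CPM in hypodermis-like cells of library 1, which supplied 122 of their 123 cells. Hes1 was at 203 and 138 CPM in dura mater-like cells.

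**Figure D5:**
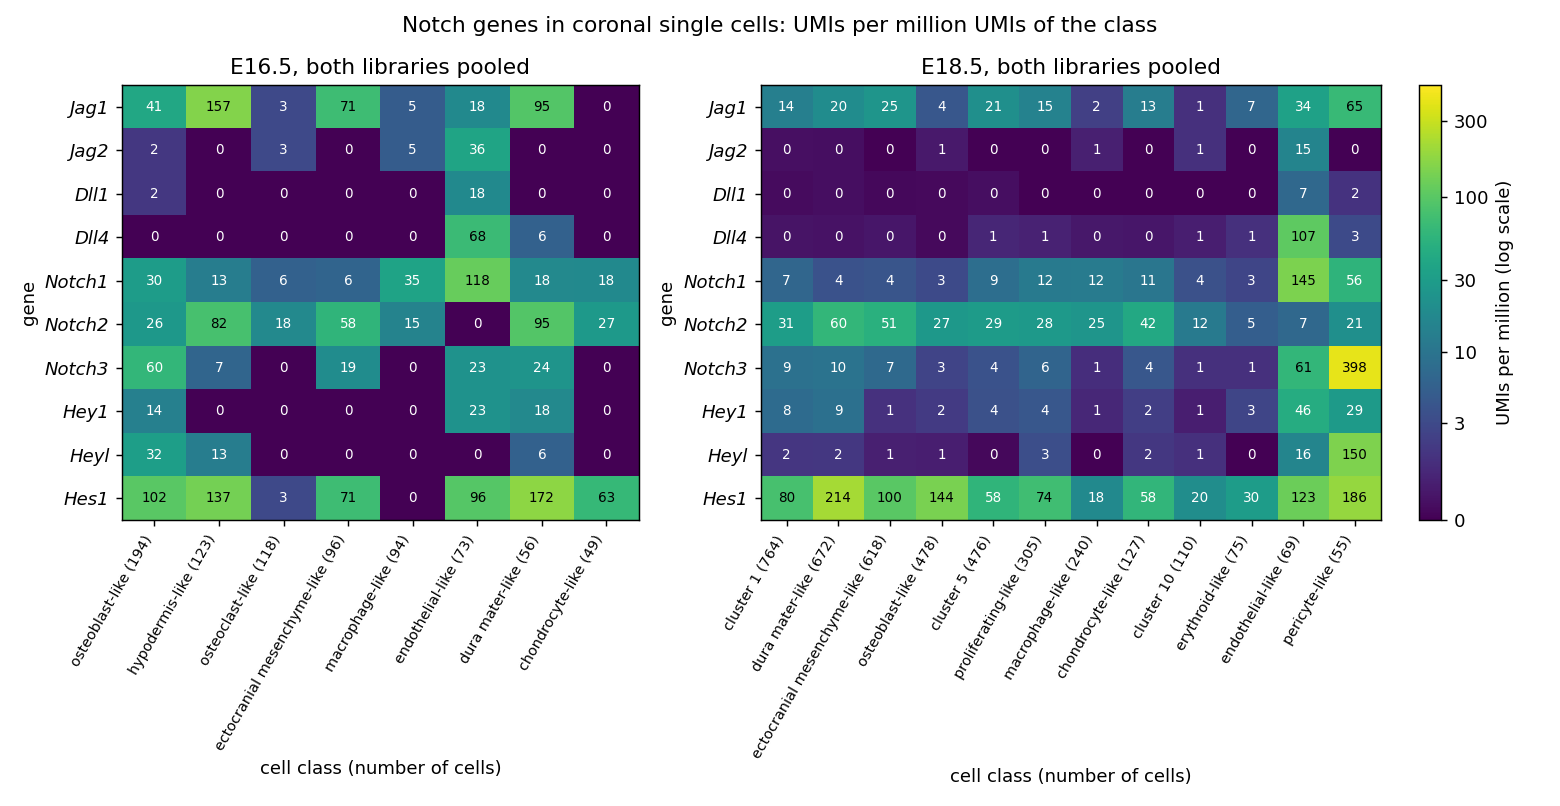
Level of each member (rows; CPM, pooled UMIs of both libraries, log colour scale) in the named classes and unnamed clusters of the coronal single-cell libraries (columns), one panel per age. Dll4 and Notch1 peak in endothelial-like cells at both ages, Notch3 and Heyl in pericyte-like cells at E18.5, and Hes1 is found in most classes, with low levels in macrophage-like cells at both ages.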

How the data were processed

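Gene counts were deposited for each library: the authors trimmed reads with cutadapt, aligned them to mm10 with STAR (version 2.5.3a) and counted them per gene with featureCounts (version 1.6.4), per the labels. Laser-captured RNA had been amplified with the Ovation RNA-Seq System V2, and the counts hold no molecular identifiers. The SE values of the bulk fits are approximate. Each is the size of the log2 difference divided by the square root of the F statistic of its quasi-likelihood test. They reflect the spread between embryos. The Poisson interval given for single cells covers counting error only. The deposited single-cell matrices hold UMI counts per gene and barcode. A deposited table holds only log2 fold changes of the authors' own comparisons and was not used.

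The 100 first libraries of the 20 groups were fitted in 1 model with edgeR 4.0.16 (R 4.3.3), as 1 mean per group with TMM scaling, and tested by quasi-likelihood with Benjamini-Hochberg adjustment (threshold 0.05). Genes above 1 CPM in at least 10% of libraries were tested (19768 of 55487). SM was compared with OF within suture and age and ages within region, and contrasts of group means gave the averages. RPKM used TMM-scaled library sizes and the deposited exon lengths. By embryo, SM was set against the mean RPKM of its OFs. The 16 complete-suture and 18 second coronal libraries entered no main test. The labels give the regions of an embryo 1 litter entry, which pairs SM and OF by replicate number; residuals of 60 such pairs correlated at a median of 0.0505, against -0.0121 between embryos, with 16 over 0.1 and a lowest value of -0.163. Alternatives were DESeq2 1.42.0, limma-voom (limma 3.58.1), other scalings and filters, separate fits, the replicate block, the second libraries, leaving out each replicate, and for ages the embryo as a random effect.

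Cells with over 800 genes and within 3 median absolute deviations were clustered with scanpy 1.11.5 (2000 variable genes, 13 components, 50 neighbours, Leiden resolution 0.8), without the Notch genes. Scrublet marked 0.254% to 1.78% of cells, which were left out only as an alternative. Correlations used group means centred within suture and age. Genes named were the members, the 6 largest called pathway changes per comparison and the 3 genes most like each member. A few genes that this rule would name are not reported here. The members and all gene lists were chosen with earlier results of these data known. The fits were tested on simulated data.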

Additional observations from a re-analysis of the deposited data

Results flagged for a closer look

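In 16 of 200 groups of 5 libraries, over 8 members, the highest library lay apart from the others by Dixon's criterion, which chance alone meets in about 1 in 20 groups. Dll1, at a median of 3 counts, gave 6 of them: 0.253 RPKM in coronal SM (replicate 2) and 0.127 RPKM in coronal PA (replicate 1) at E16.5, 0.280 RPKM in coronal FR at E18.5 (replicate 1), 0.0995 RPKM in lambdoid IP (replicate 3) and 0.134 RPKM in lambdoid PA (replicate 4) at E18.5, and 0.253 RPKM in sagittal SM at E16.5 (replicate 4). Replicate 2 of coronal SM at E16.5 also stood apart for Notch1, at 4.93 RPKM, and replicate 2 of the coronal FR there for Dll4, at 1.58 RPKM. Replicate 5 of frontal SM at E16.5 stood apart for Dll4 (1.6 RPKM) and Hey1 (3.10 RPKM). In sagittal groups at E16.5, Jag2 reached 0.617 RPKM in SM (replicate 5), and Heyl reached 0.517 RPKM in SM (replicate 4) and 0.467 RPKM in PA (replicate 1). At E18.5, Notch1 reached 3.29 RPKM in lambdoid SM (replicate 5), Notch2 reached 19.5 RPKM in coronal PA (replicate 5) and Hes1 reached 9.82 RPKM in coronal FR (replicate 2).

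Differences between sutures were found by the F test of the edgeR model for the SM-OF difference of Jag1 (adjusted p = 1.38e-06) and Hes1 (adjusted p = 3.78e-09). For the age difference, a test added after the data had been seen, they were found for Notch1 (adjusted p = 0.00346), Notch3 (adjusted p = 3.18e-05) and Heyl (adjusted p = 3.49e-05).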

How the results depend on the processing

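The log2 differences followed numbered 65: the means over sutures or regions, and the single comparisons called in the main fit. Single comparisons not called there were not followed, so any calls they gained are not in these counts. Of the pairs of such a difference and an alternative setting, 800 kept direction and side of the threshold, 140 lost the call, 3 gained one and 12 changed sign. Members higher in SM numbered 3 in place of 5 with limma-voom, without a low-count filter and with the replicate block, and 3 to 5 without single replicates. Members higher in OF numbered 2 to 4 without single replicates. The 11 single calls with OF higher became 5 with limma-voom, 7 with median-ratio size factors, 5 with total counts, 3 without the filter and 19 in separate fits, and 3 to 9 without single replicates. Members higher at E18.5 numbered 0 to 1 without single replicates. The 1 single call with E18.5 higher became 2 with total counts, 0 without the filter and 5 in separate fits, and 0 to 2 without single replicates. The 6 with E16.5 higher became 10 with DESeq2 and 3 in separate fits. With second libraries added or in place of the first, 4 members in place of 2 varied between sutures in their SM-OF difference. Dll4 also passed that test by limma-voom (adjusted p = 0.0348) and by edgeR without replicate 2 (adjusted p = 0.0476). Notch2 passed by the likelihood ratio test of DESeq2 (adjusted p = 0.0285). By edgeR it passed with median-ratio size factors (adjusted p = 0.0343) and without replicate 5 (adjusted p = 0.0494). Of the pathway genes, 3 to 5 were higher at E18.5 without single replicates. At E16.5, 3 were higher with limma-voom, 2 with total counts, 3 with second libraries in place and 2 to 5 without single replicates.

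Among the differences followed, signs changed only for those that had not passed. The age difference of Jag2 became -0.037 with second libraries added and -0.20 with them in place, and that of Dll1 -0.28 with them in place. The SM-OF difference of Dll4 became 0.0057 with DESeq2, 0.0266 with limma-voom, 0.0058 with median-ratio factors and 0.073 with total counts, and ran from -0.14 to 0.0696 without single replicates. Without single replicates the age difference of Dll1 ran from -0.10 to 0.81 and that of Notch1 from -0.0435 to 0.18. The cause was not tested. Total counts moved the median SM-OF difference of all genes from 0.04 to 0.14 and the share of calls with SM higher from 49.8% to 61.7%. Among the differences followed, the replicate block changed 4 calls, given above, and no other. Ages hold different embryos, so a fixed block could not be fitted between them. With the embryo as a random effect in limma-voom (40 embryos, estimated correlation 0.0817), an alternative added after the data had been seen, the mean age differences of Hes1, Notch3 and Jag1 still passed (adjusted p = 0.00147, 0.00228 and 0.0329), those of Heyl in the coronal and sagittal PA did not (adjusted p = 0.225 and 0.562), and 3 pathway genes in place of 5 were higher at E16.5. Counts were small for Dll1 (median of 3 counts) and in the E16.5 cells, and whether greater depth would change their values was not tested.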
